A study of Mus musculus with 7 samples.

Results

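The p53 arrest branch was described across the 7 embryos through 9 genes: Trp53, which encodes p53, and Cdkn1a, Mdm2, Mdm4, Ccng1, Trp53inp1, Sesn2, Phlda3 and Gadd45a. Members were all probe sets that the array annotation assigns to 1 of these genes, 15 of 22690 probe sets on the array. They cover 8 of the 9 genes, and Trp53 itself was not analysed here. RNA of whole FVB mouse embryos at E10.5 was hybridized to 7 Affymetrix 430A 2.0 arrays, each carrying 1 embryo. The 2 control embryos had an untreated dam, and the 5 exposed embryos had a dam made diabetic with streptozotocin at 7 to 9 weeks of age, with blood glucose above 250 mg/dl from mating to harvest. Of the exposed embryos, 3 had no malformation identified and 2 had neural tube defects (NTD). According to the study's text each group came from a single dam. Diabetes and litter therefore cannot be told apart here, and all p-values here are set against the spread between littermates.

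p53 is a transcription factor that cells keep at low levels by constant degradation. Damaged DNA and other stresses stabilise it, and it then turns on genes that halt the cell cycle, repair DNA or start cell death. Mdm2 marks p53 for degradation and is itself turned on by p53, which closes a feedback loop, and Mdm4 is a relative of Mdm2 that blocks p53 activity. In mouse embryos p53 is known for its part in neural tube closure, and loss of Mdm2 is lethal early unless p53 is lost as well.

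The libraries differed in other respects that touch the members. Summed signals of 9 markers of primitive red blood cells were 53665 and 55956 in the controls and 67504 to 85502 in exposed embryos. Of the tested markers 8 of 8 were higher in all exposed embryos, beside 11.4% of all tested probe sets, although none was called. Summed markers of heart muscle (11069 and 11504 against 12024 to 13879), somites (1910 and 2032 against 2150 to 2431) and placental trophoblast (542 and 639 against 704 to 794) did not overlap between the groups either. All tested heart markers were higher on average in exposed embryos, with log2 fold changes of 0.013 to 0.40. Single markers of somites and of trophoblast did not move together. The groups were without overlap for 2 of 8 tested heart markers, beside 24.7% of all tested probe sets in either direction. They were also without overlap for 1 of 6 somite markers, Meox1 (log2 fold change 0.72, with a list median of -0.17). The same held for 1 of 2 trophoblast markers, Hand1 (0.84, against -0.19 for Plac1). Tpbpa, a defining trophoblast gene, had a signal of only 10.4 to 30.0 in all 7 embryos. Summed markers of neural progenitors overlapped, at 8106 and 8418 in controls and 6386 to 8284 in exposed embryos. The groups did not overlap for 2 of 6 tested ones, Fabp7 (log2 fold change -0.85) and, in the other direction, Msi1 (0.59). Exposed embryo 1 without NTD stood apart in the summed signal of 16 markers of yolk sac and liver, at 27517 against 1773 to 4452 in the other 6 embryos, although not in Alb, at 226 against 314 and 426 in the controls. Xist, transcribed from the inactive X chromosome, had signals of 6074 to 7533 in 4 exposed embryos but 256 in exposed embryo 2 with NTD compared with 165 to 181 in controls. The Y-linked Eif2s3y had 245 in exposed embryo 2 with NTD, 227 and 203 in the controls and 0.549 to 2.76 in the other 4. The part of these differences in the results for the members was not tested, and in whole embryos fewer cells of a type and less RNA per cell cannot be told apart.

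**Figure D1:**
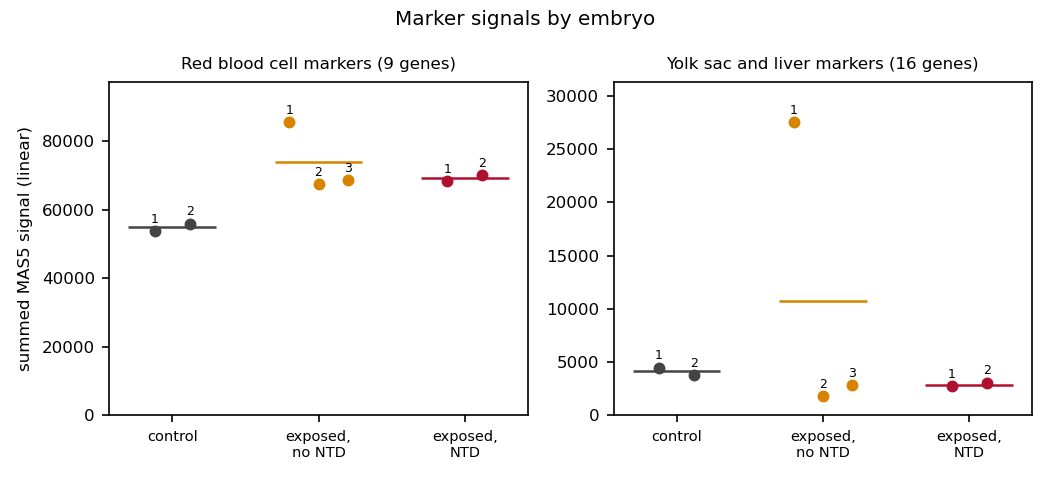
Summed MAS5 signals (linear scale) of 9 red blood cell markers on the left and 16 yolk sac and liver markers on the right. Each point is 1 embryo, numbered within its group, and lines are group means. All 5 exposed embryos lie above both controls in the left panel, and exposed embryo 1 without NTD stands apart at 27517 in the right panel.

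The question of the first comparison was whether exposure to maternal diabetes alters expression in the embryo. Cdkn1a, the inhibitor of cyclin-dependent kinases through which p53 halts the cycle, was higher in each exposed embryo than in both controls, with a log2 fold change of 0.73. Mdm2, Mdm4 and Trp53inp1 were lower in each exposed embryo than in both controls. Ccng1, Sesn2, Phlda3 and Gadd45a overlapped between the groups. No member passed the test, a limma fit over all probe sets with a Benjamini-Hochberg adjusted p under 0.05, and the smallest adjusted p was 0.0800, for Cdkn1a. The study itself reported Cdkn1a as higher in exposed embryos and past both of its own tests, which differ from this fit. It listed the gene among known targets of the hypoxia factor HIF1, so Cdkn1a is not a readout of p53 alone.

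Of the 15 member probe sets, 13 passed the filter on dim probe sets, which required the 40th percentile of an array to be reached in at least 2 arrays, and all 8 genes had at least 1. Of the 13, 0 were called, against 25 of all 14554 tested probe sets (0.172%). At an unadjusted p under 0.05 from limma, 1 was higher and 3 were lower in exposed embryos, against 7.63% and 8.52% of all tested probe sets and 16.2% in either direction. The groups did not overlap in 6 of the 13, against 24.7% of all tested probe sets. The exposed embryos lay above both controls in 1 of these, against 11.4% of all, and below both controls in 5, against 13.4% of all. The median log2 fold change of the 13 was -0.12, beside 0.00033 over all tested probe sets. The direction was mixed, and with the brightest tested probe set of each gene 4 genes were higher and 4 lower.

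**Figure D2:**
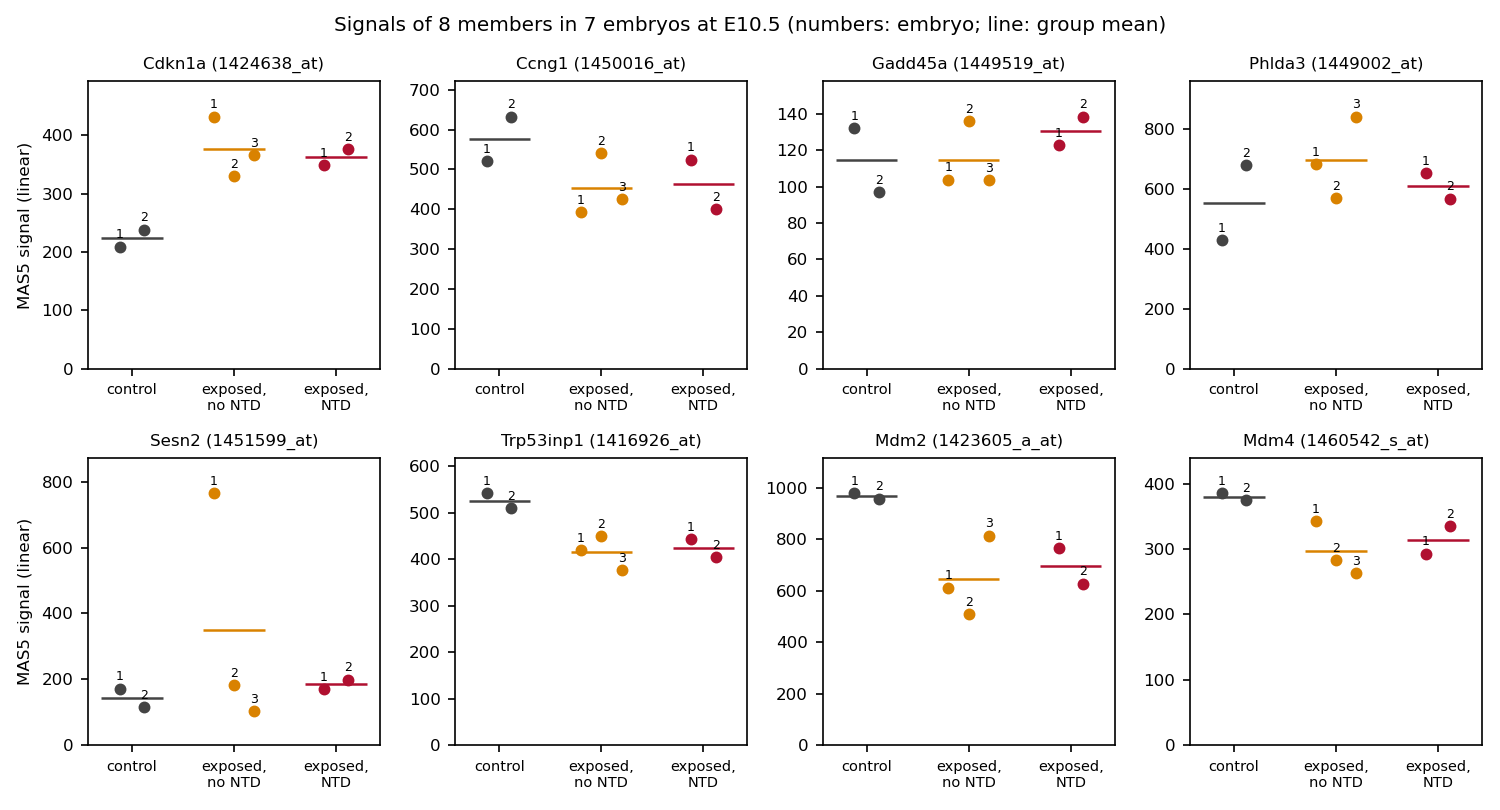
MAS5 signals (linear scale, from 0) of the brightest tested probe set of 8 members in 2 control embryos, 3 exposed embryos without NTD and 2 with NTD. Points are embryos, numbered within the group, and lines are group means. Cdkn1a lies above both controls in all 5 exposed embryos, and Mdm2, Mdm4 and Trp53inp1 lie below both, while Sesn2 is set apart by 1 embryo at 765.

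Cdkn1a (probe set 1424638_at) had signals of 209 and 238 in controls 1 and 2. It had 432, 330.0 and 366 in embryos 1, 2 and 3 of the exposed group without NTD, and 349 and 376 in exposed embryos 1 and 2 with NTD. The lowest exposed embryo was above the higher control, and the 3 middle exposed embryos lay close together. The mean signal was 223 ± 20.8 (SD, n = 2) in controls, and exposed embryos reached 370.3 ± 38.4 (SD, n = 5), a 1.66-fold ratio. The log2 fold change of 0.73 had a standard error of 0.15 (limma, adjusted p = 0.0800), and the two-sided exact permutation p was 0.048, the smallest that 2 against 5 embryos allow. Exposed embryo 2 with NTD, which resembled the controls in Xist and Eif2s3y, is the one at 376. Exposed embryo 1 without NTD, with the high yolk sac markers, had the highest signal, and without it the log2 fold change was 0.67 (adjusted p = 0.0703). With array quality weights, under which 491 probe sets were called, Cdkn1a passed (adjusted p = 0.0220). Without control 1 the log2 fold change was 0.63 (adjusted p = 0.558), and without control 2 it was 0.82 (adjusted p = 0.380), each with the remaining control assumed to vary like the exposed embryos. A dimmer probe set (1421679_a_at) did not pass the filter, with signals of 18.0 and 13.8 in controls and 13.9 to 47.2 in exposed embryos, which overlapped.

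Members that p53 is known to turn on can carry its binding site, a pair of half-sites, near the start of the gene, and the stretches with a match to the p53 half-site consensus are shown here to set Cdkn1a beside the others. RefSeq (GRCm38.p6) gave 9 windows for 7 of the 8 genes, each from 250 bases before to 50 bases after the start of the gene, and Trp53inp1 is named only. A match on either strand, the consensus being its own reverse complement, was present in 4 of the 9 windows and in 8.36% of all 32851 windows. No mismatch was allowed, so a half-site with a mismatched base is neither counted nor in capitals. Sites outside the windows, such as those further into a gene, are not counted either, and the Phlda3 window ends within a possible match. A pair of matches separated by 0 to 13 bases was present in 1 of the 2 windows of Cdkn1a, and in 24 windows in all. The window at the other annotated start of Cdkn1a had no match. The stretches lie at chr17:29090886-29090957 on the plus strand for Cdkn1a, and on the minus strand at chr10:117710915-117710964 for Mdm2, chr11:40755442-40755491 for Ccng1 and chr6:67037418-67037467 for Gadd45a. They run 5′ to 3′ upstream of the start of the gene, with matches in capitals.
Cdkn1a: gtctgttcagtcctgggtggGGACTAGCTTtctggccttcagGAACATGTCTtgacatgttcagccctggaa
Mdm2: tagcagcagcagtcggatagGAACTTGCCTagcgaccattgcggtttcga
Ccng1: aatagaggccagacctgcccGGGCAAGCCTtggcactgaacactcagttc
Gadd45a: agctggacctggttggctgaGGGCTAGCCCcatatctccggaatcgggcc
The 4 genes did not share a direction between the groups. Cdkn1a, with the pair of exact matches 12 bases apart, was higher in exposed embryos, Mdm2 was lower, and Ccng1 and Gadd45a overlapped. The 10 bases directly after the second Cdkn1a match differ from the consensus at 1 base. So do the 10 directly before the Ccng1 match. A pair of exact matches therefore does not set Cdkn1a apart from Ccng1 once a mismatch is allowed. A match of letters is a description of the sequence and not a site shown to be bound.

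The signals of the p53 inhibitors Mdm2 and Mdm4 lay below both controls in the exposed embryos, without passing the test. Mdm2 (1423605_a_at) had signals of 978 and 957 in controls 1 and 2, of 611, 508 and 813 in embryos 1, 2 and 3 of the exposed group without NTD, and of 766 and 627 in exposed embryos 1 and 2 with NTD. Every exposed embryo was below both controls, and the exposed embryos spread more than the controls. The means were 665 ± 124 (SD, n = 5) and 967 ± 15.3 (SD, n = 2), a log2 fold change of -0.56 with a standard error of 0.18 (limma, adjusted p = 0.177; exact permutation p = 0.048). The other probe set of Mdm2 (1427718_a_at) gave 537 and 539 in controls and 359 to 511 in exposed embryos. These groups did not overlap either, with a log2 fold change of -0.33 (limma, adjusted p = 0.341; exact permutation p = 0.095). Mdm4 (1460542_s_at) had signals of 386 and 375 in controls 1 and 2, of 342, 283 and 264 in embryos 1, 2 and 3 of the exposed group without NTD, and of 293 and 335 in those with NTD. It was below both controls in all 5 exposed embryos, with a log2 fold change of -0.33 and a standard error of 0.15 (limma, adjusted p = 0.321; exact permutation p = 0.095). The dimmer probe set of Mdm4 (1419558_at), which did not pass the filter, had 128 and 138 in controls and 68.4 to 113 in exposed embryos. In exposed embryo 2 with NTD the signals of Mdm2 and Mdm4 were 627, 422, 335 and 68.4 on the 4 probe sets.

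Trp53inp1, a p53-induced nuclear protein that promotes p53 activity and autophagy, was lower on both of its probe sets. On 1416926_at the signals were 542 and 510 in controls 1 and 2, 420, 449 and 376 in embryos 1, 2 and 3 of the exposed group without NTD, and 443 and 405 in those with NTD. All exposed embryos were below both controls, at 418 ± 29.4 (SD, n = 5) against 526 ± 22.6 (SD, n = 2). The log2 fold change was -0.33 with a standard error of 0.13 (limma, adjusted p = 0.256; exact permutation p = 0.048). The dimmer 1416927_at gave 154 and 193 in controls 1 and 2, 77.1, 99.2 and 92.9 in embryos 1, 2 and 3 of the exposed group without NTD, and 145 and 118 in those with NTD. All exposed embryos were again below both controls, with a log2 fold change of -0.73 and a standard error of 0.30 (limma, adjusted p = 0.267; exact permutation p = 0.048).

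Ccng1, the cyclin G1 that recruits a phosphatase to Mdm2, overlapped between the groups on its 3 probe sets, which did not share a direction. The brightest (1450016_at) had signals of 521 and 632 in controls 1 and 2, of 393, 540.1 and 426 in embryos 1, 2 and 3 of the exposed group without NTD, and of 525 and 400.2 in those with NTD. Only exposed embryo 2 without NTD and embryo 1 with NTD exceeded the lower control, and the log2 fold change was -0.34 with a standard error of 0.17 (limma, adjusted p = 0.353). It was -0.48 without control 1 and -0.20 without control 2. Log2 fold changes of the others were 0.17 (1420827_a_at, 370.4 to 520 in exposed embryos against 426 and 342) and -0.12 (1450017_at, 294 to 495 against 421 and 336).

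Sesn2, the stress-induced sestrin that restrains growth signalling through mTORC1, had the largest standard errors among the members. On 1451599_at it had signals of 171 and 115 in controls 1 and 2, of 765, 182 and 103 in embryos 1, 2 and 3 of the exposed group without NTD, and of 169 and 199 in those with NTD. Exposed embryo 1 without NTD, the embryo with the high yolk sac markers, was far above the other 6, which lay between 103 and 199. The log2 fold change was 0.63 with a standard error of 0.59 (limma, adjusted p = 0.632), and 0.18 without that embryo. On 1425139_at the same embryo had 459 against 82.7 to 158 in the other exposed embryos and 99.8 and 59.6 in controls, with a log2 fold change of 1.04 and a standard error of 0.54 (adjusted p = 0.368).

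Phlda3, an inhibitor of Akt signalling, and Gadd45a, a stress protein that acts on growth arrest and DNA repair, showed no separation of the groups. Phlda3 (1449002_at) had signals of 429 and 680 in controls 1 and 2, of 684, 569 and 842 in embryos 1, 2 and 3 of the exposed group without NTD, and of 654 and 569 in those with NTD. The controls differed from each other by about as much as the exposed embryos did, and the log2 fold change was 0.28 with a 95% interval of -0.17 to 0.74 (limma, adjusted p = 0.527). It was -0.05 without control 1 and 0.62 without control 2. Gadd45a (1449519_at) had signals of 132 and 96.9 in controls 1 and 2, of 104, 136 and 104 in embryos 1, 2 and 3 of the exposed group without NTD, and of 123 and 138 in those with NTD. The exposed embryos spanned nearly the same range as the controls, with a log2 fold change of 0.08 and an interval of -0.52 to 0.68 (adjusted p = 0.911). Its direction turned without control 2, to -0.14.

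**Figure D3:**
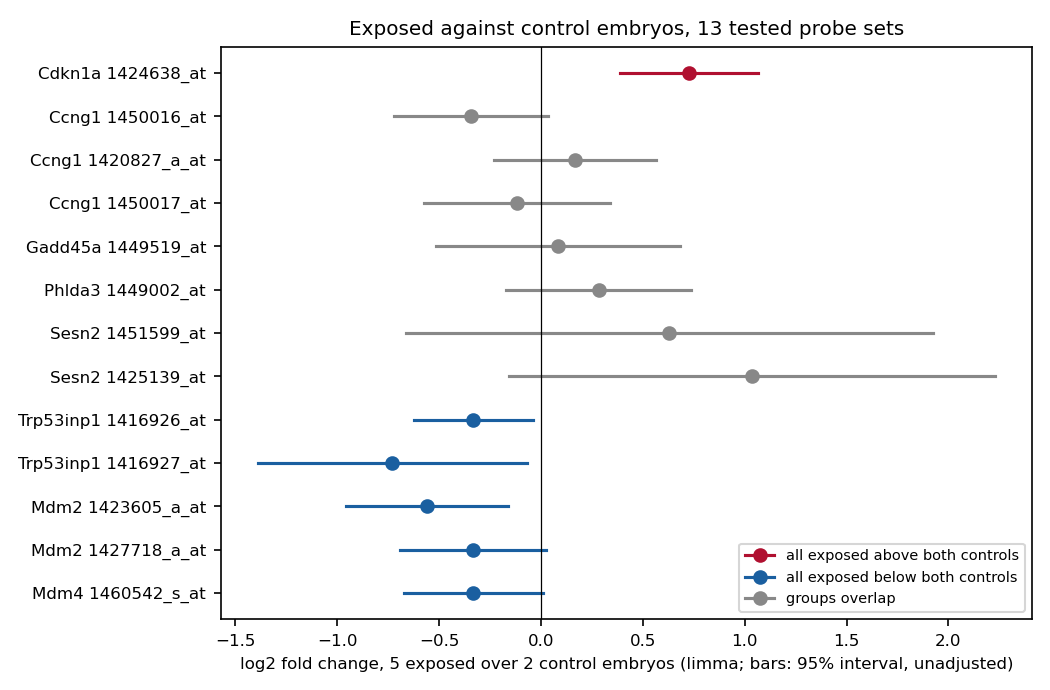
Log2 fold change of the 13 tested member probe sets, 5 exposed over 2 control embryos, from limma, with unadjusted 95% intervals. Red marks the Cdkn1a probe set, above both controls in all exposed embryos, blue the 5 probe sets of Trp53inp1, Mdm2 and Mdm4 that lie below both controls, and grey the 7 whose groups overlap. The intervals of Sesn2 are the widest.

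The second comparison asked whether the members differed between exposed embryos with and without NTD. None of the 13 probe sets was called by limma, nor was any of the 14554 tested (0%). At an unadjusted p under 0.05 there were 0 members, against 440 of all tested probe sets (3.02%). Cdkn1a had a mean signal of 362 ± 18.9 (SD, n = 2) with NTD and 376 ± 51.5 (SD, n = 3) without, a log2 difference of -0.05 with a 95% interval of -0.44 to 0.35. Mdm2 (1423605_a_at) differed by 0.13 (interval -0.32 to 0.59), Mdm4 by 0.09 (-0.30 to 0.48) and the brighter Trp53inp1 probe set by 0.03 (-0.31 to 0.38). Differences within these intervals are not excluded. The groups did not overlap on 1 of the 13 probe sets, against 16.1% of all tested. This was the dimmer Trp53inp1 probe set (1416927_at), with 118 and 145 in embryos with NTD and 77.1 to 99.2 in those without, a log2 difference of 0.55 (limma, adjusted p = 0.999). Its exact permutation p was 0.1, the smallest that 2 against 3 embryos allow, and the brighter probe set of the same gene overlapped.

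Other genes of the pathway were read from lists around the members, each gene by its brightest tested probe set. None of their tested genes rose or fell by limma at an adjusted p under 0.05, in either comparison. Among regulators upstream of p53, 0 of 26 passed, 2 were higher and 2 lower at an unadjusted p under 0.05, beside 7.63% and 8.52% of all tested probe sets, and the median log2 fold change was -0.06. Chek2, a kinase of the DNA damage checkpoint that phosphorylates p53, had 403 and 425 in controls and 540 to 645 in exposed embryos (log2 fold change 0.54, adjusted p = 0.106). Atr, the kinase that senses stalled replication, was lower at 317 to 437 against 468 and 490 (-0.40, adjusted p = 0.241). Sirt1, which deacetylates p53, was lower at 269 to 519 against 642 and 553 (-0.54, adjusted p = 0.303). These 3 were named for the smallest p of the list. The groups did not overlap in 7 of the 26 genes, beside 24.7% of all tested probe sets. Usp7, another gene of this list, is among the genes that the study reported as changed. It has 2 probe sets on the array, and only the brightest tested one was read here. The list therefore does not show that every probe set of these regulators was unchanged.

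Among other p53 targets of arrest, repair and stress, 0 of 26 passed, 3 were higher and 2 lower at an unadjusted p under 0.05, beside the same 7.63% and 8.52% of all, and the median was 0.03. The groups did not overlap in 6 of the 26, beside 24.7% of all tested probe sets. Ddit4, an inhibitor of mTORC1 that hypoxia also induces, had 1066 and 1145 in controls and 1295 to 2579 in exposed embryos (log2 fold change 0.76, adjusted p = 0.157). Ak1, an adenylate kinase, had 0.32 (adjusted p = 0.296), and Thbs1, an inhibitor of blood vessel growth, had -0.66 (adjusted p = 0.273). Among p53 targets of cell death, 0 of 9 passed, and the median was 0.10. Unadjusted, 1 was higher and 0 lower, beside the same 7.63% and 8.52% of all. Bbc3, which encodes Puma, had 159 and 192 in controls and 202 to 257 in exposed embryos (0.40, adjusted p = 0.300). Apaf1, the scaffold of the apoptosome, had -0.27 (adjusted p = 0.421) and -0.59 on its other tested probe set (adjusted p = 0.196), and Siva1, a proapoptotic protein, had 0.16 (adjusted p = 0.550), while another of its probe sets had -0.28. The groups did not overlap in 2 of the 9 genes, beside the same 24.7% of all, Bbc3 and, in the other direction, Apaf1.

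Of the members' paralogs, 0 of 10 passed, and the median was 0.08. Unadjusted, 2 were higher and 0 lower, beside 7.63% and 8.52% of all tested probe sets. Their groups did not overlap in 4 of the 10, beside 24.7% of all. Phlda1, a relative of Phlda3, had 415 and 391 in controls and 499 to 603 in exposed embryos (0.49, adjusted p = 0.132). Cdkn1b, the CDK inhibitor p27, had 236 and 203 in controls and 247 to 375 in exposed embryos (0.53, adjusted p = 0.219), which like Cdkn1a did not overlap. Gadd45g, a relative of Gadd45a, was lower at 434 to 593 against 757 and 602 (-0.34, adjusted p = 0.328). Of the other CDK inhibitors, among which Cdkn1b is counted again, 0 of 4 passed, and the median was -0.0055. Unadjusted, 1 was higher and 0 lower, beside the same shares of all. Cdkn2d, which inhibits Cdk4 and Cdk6, had -0.29 (adjusted p = 0.345), and Cdkn1c, the CDK inhibitor p57, had -0.15 (adjusted p = 0.539).

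The cell cycle genes on which Cdkn1a acts were read in the same way. Of cyclins, CDKs and E2F and Rb family genes of G1 and S phase, 0 of 14 passed, and the median was -0.01. Unadjusted, 2 were higher and 1 lower, beside 7.63% and 8.52% of all tested probe sets. E2f3, a transcription factor of S phase entry, had 308 and 295 in controls and 154 to 239 in exposed embryos (-0.70, adjusted p = 0.138). Ccnd3, a cyclin of G1, had 1909 and 2013 in controls and 2360 to 2709 in exposed embryos (0.35, adjusted p = 0.161), and Ccne1, a cyclin of S phase entry, had 0.39 (adjusted p = 0.243). Of G2 and mitosis genes, 0 of 22 passed, and the median was 0.04. Unadjusted, 1 was higher and 1 lower, beside the same shares of all. Cdc25b, a phosphatase of mitotic entry, had 0.41 (adjusted p = 0.239), Kif20a, a motor of cytokinesis, had -0.36 (adjusted p = 0.299), and the mitotic kinase Plk1 had 0.27 (adjusted p = 0.401). The medians of these lists lay between -0.06 and 0.10, beside 0.00033 over all tested probe sets.

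**Figure D4:**
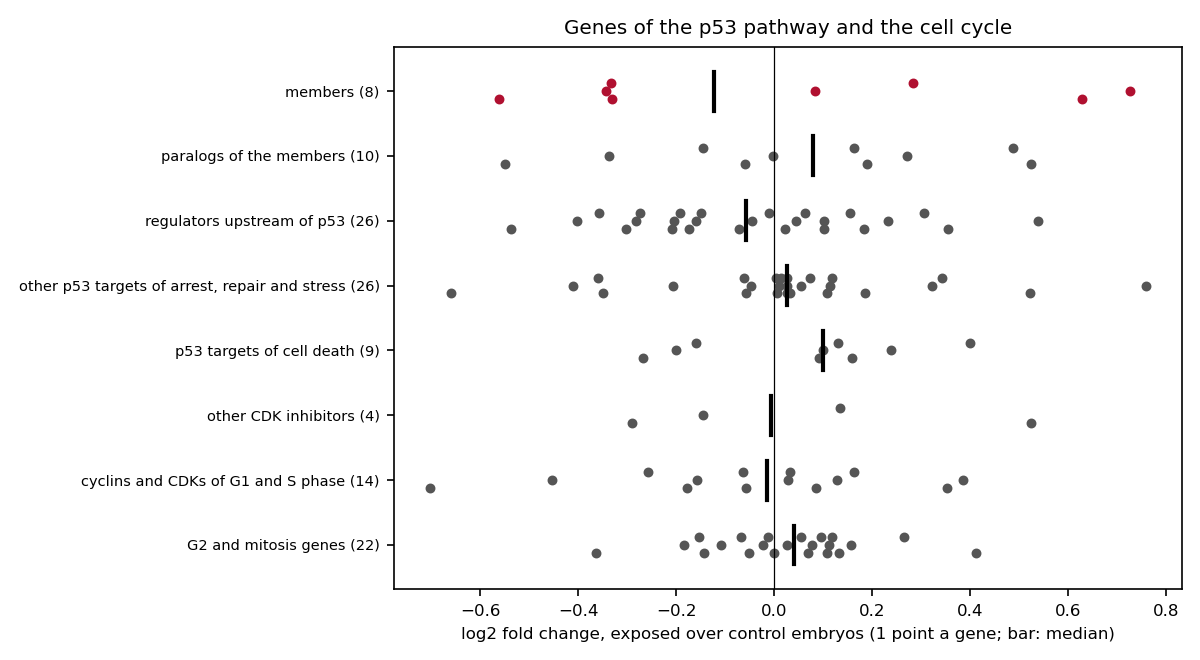
Log2 fold change, exposed over control embryos, of each tested gene in 8 lists of the p53 pathway and the cell cycle, with the number of tested genes in brackets. Each point is the brightest tested probe set of a gene and each bar a list median. All list medians lie near 0, from -0.12 for the members to 0.10 for the targets of cell death.

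The profiles most like that of Cdkn1a were sought among 8656 other genes, as a description over 7 embryos that share the difference between the groups. Pearson's r of log2 signals was 0.99 for Ciapin1, an inhibitor of apoptosis that takes part in iron-sulphur cluster assembly, and 0.99 for Bloc1s3, a subunit of a complex of lysosome-related organelles. It was 0.98 for each of Mt2, a metal-binding metallothionein, Col4a6, a basement membrane collagen, and Lpcat1, an enzyme of phospholipid remodelling. The most opposite profiles were those of Trib2, a pseudokinase (-0.99), 6330403K07Rik (-0.99) and Slc25a33, a mitochondrial carrier (-0.98). None of these 8 genes had groups that overlapped between controls and exposed embryos. They were picked for following Cdkn1a, whose groups do not overlap, so this comes with the choice and is no separate result. Among the members, r with Cdkn1a was -0.90 for Trp53inp1, -0.75 for Ccng1, -0.72 for Mdm2 and -0.60 for Mdm4, and 0.57 for Phlda3, 0.51 for Sesn2 and -0.05 for Gadd45a. Mt2, with 1251 and 1301 in controls and 3556 to 5776 in exposed embryos, was the only one of the 8 that passed the test of exposed against control embryos (limma, adjusted p = 0.0106).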

How the data were processed

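Per the labels and the study's methods, 5 ug of total RNA from each E10.5 embryo was labelled and hybridized to its own array. The authors deposited intensities on a linear scale, MAS5 signals scaled on each array. Trimmed by 2% at each end, the 22626 probe sets other than controls had a mean of 497 to 498 on every array. The MAS5 version was not given in the sources used here. Detection calls were left aside. The array's annotation gave 1 gene symbol for 20393 probe sets, several for 691 and none for 1606, and members came from the first kind.

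Signals below 1 were set to 1 and converted to log2 with no further normalization. A probe set was tested where it reached the 40th percentile of all probe sets on at least 2 of 7 arrays, which left 14554, and 64 control probe sets were left out. This base of the percentile was chosen after a first run over probe sets other than controls, which left 14542 and called the same number, 25. Exposed and control embryos were compared by limma (version 3.58.1, R 4.3.3), letting the variance prior follow signal, with calls at a Benjamini-Hochberg adjusted p under 0.05, and embryos with and without NTD in a fit of 3 groups. Exact permutation tests were two-sided. The members, the lists and the rule for naming genes were chosen with earlier results of these data known. The rule took all member probe sets, up to 3 genes of smallest p from each other list and any called gene, the 5 genes most and 3 least like Cdkn1a, and Xist, Eif2s3y and yolk sac markers; Tpbpa was added after its values were seen. A gene with several tested probe sets entered a list with its brightest one. Alternatives were quantile normalization, median centring, a floor of 16, an offset of 50, other filters, no trend, array quality weights, other groupings, the replicate block, the methods' t-test and each embryo left out. The fit was tested on simulated data. The number of arrays limits the precision. Promoter windows were read from RefSeq. Python 3.11.15, pandas 2.3.3, NumPy 2.4.6 and Matplotlib 3.10.9 were used besides.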

Additional observations from a re-analysis of the deposited data

Results flagged for a closer look

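One Ccng1 probe set (1450017_at) had a log2 signal in exposed embryo 1 without NTD that lay far from those of the other 4 exposed embryos, with a gap of 0.742 of the whole range, above Dixon's critical value for 5 samples. Its signal there was 495, against 294 to 336 in the other exposed embryos. This was 1 of 15 member probe sets examined, and chance alone gives such a gap in about 1 of 20 groups.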

How the results depend on the processing

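In exposed against control embryos, 0 members were called under all alternatives but array quality weights, where 1 was called, Cdkn1a, whose log2 fold change was then 0.70. With the replicate block 0 were called in either comparison. Embryos with the same number did not deviate together (r of deviations -0.25 to 0.03), so that the numbers do not pair the samples, and the block took the calls over all probe sets from 25 to 0. Leaving out each embryo in turn gave 0 calls among the members in both comparisons. Over the alternatives 290 single values kept their direction and their side of the threshold. Leaving out 1 embryo turned the direction in these, with the lowest and highest log2 value: Phlda3 -0.050 and 0.62 and Gadd45a -0.14 and 0.31 in exposed against control embryos, and, with against without NTD, Cdkn1a -0.13 and 0.059, Mdm2 -0.024 and 0.31, Mdm4 -0.0069 and 0.20, Ccng1 -0.17 and 0.23, Trp53inp1 -0.036 and 0.097 and Sesn2 -1.02 and 0.42. With the replicate block, the difference with against without NTD turned for Ccng1 (-0.0070) and Trp53inp1 (-0.036), and with the median of the probe sets for Mdm2 (-0.044). The median of the probe sets moved 3 other values, Ccng1 to -0.12 and Trp53inp1 to -0.53 in exposed against control embryos and Trp53inp1 to 0.29 with against without NTD. The number of called probe sets among all tested went from 25 to 50 with an offset of 50, 491 with array quality weights, 8 with no filter, 10 with no trend, 14 in the 3-group fit and 0 with the methods' t-test, and to between 0 and 58 on leaving out 1 embryo. At an unadjusted p under 0.05 the methods' t-test gave 6 member probe sets and 2651 of all tested, and 0 after Benjamini-Hochberg adjustment. It was run here as a Welch test of log2 signals, adjusted over all tested probe sets. The study also filtered on detection calls and fold change and used Cyber-T as a further test. These 0 calls are therefore not the outcome of the study's own procedure. The causes were not tested.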
